A study of Mus musculus with 5 samples.

Results

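Fcgr1, Fcgr2b and Fcgr3 encode mouse receptors for the Fc part of immunoglobulin G, and their RNA was measured in co-cultures of blood-forming and stromal cells under conditions that form osteoclasts. The members were all probe sets that the platform annotation assigns to one of these symbols. There were 4 such probe sets for 3 genes, out of 10833 probe sets with 1 symbol for 8251 genes. Fcgr1 was read by probe sets 102879_s_at and 101793_at, Fcgr2b by 102337_s_at and Fcgr3 by 94074_at. A letter before the last part of such a name marks a set whose probes may match more than 1 transcript, and the probe sequences were not used here. Fcgr2b and Fcgr3 are close relatives with very similar extracellular parts, so whether their probe sets also read each other's transcript is unknown. Fcgr4, which lies between Fcgr2b and Fcgr3 among the protein-coding genes of chromosome 1 in the RefSeq table of GRCm38.p6, was not analysed here. Fcgr1 lies on chromosome 3.

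Fc gamma receptors let myeloid cells sense antibody bound to its target. Fcgr1, the high-affinity receptor, and Fcgr3, a low-affinity receptor, are activating: both pair with the common gamma chain encoded by Fcer1g, whose ITAM motif recruits the kinase Syk and leads to phagocytosis and an oxidative burst. Fcgr2b is the inhibitory receptor and carries an ITIM motif that recruits the phosphatase SHIP1, encoded by Inpp5d. Macrophages and neutrophils can carry receptors of both kinds, B cells carry Fcgr2b, and interferon-gamma is a textbook inducer of Fcgr1. Osteoclasts come from the same myeloid precursors as macrophages and use the gamma chain and its relative Tyrobp as co-stimulatory adaptors during differentiation.

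The 5 cultures were Fos+/+ splenocytes, Fos-/- splenocytes, Fos+/+ bone marrow cells, and Fos-/- splenocytes infected with either a deltaNFAT virus or a virus for green fluorescent protein (GFP). The product of Fos is part of AP-1, a transcription factor, as NFAT proteins are. What the deltaNFAT construct encodes is not explained in the labels. In every culture the haematopoietic cells sat on ST2-T stromal cells for 6 days with dexamethasone and 1,25-dihydroxyvitaminD3, and the whole dish went into the RNA. The labels give no strain, age, number of animals, infection rate or virus dose. Each group had 1 array, so no test could be run, no value has a replicate error, and every comparison is between a pair of arrays. Fewer cells of a type and less RNA per cell cannot be told apart in these whole-dish samples.

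Intensities are on a linear scale and can be negative, and how background was treated before deposit is not stated. A floor was set at an intensity of 19.8, the 40th percentile of all values, and lower values were set to it before ratios were taken. Each array had 58.3 to 62.3% of its probe sets above it. A gene was called higher or lower when 2 arrays differed 2-fold or more and the brighter one reached 39.6. Listed genes counted as measured when they were above the floor in any array. Shares over all genes take only those that reached 39.6 in the pair, so list counts and shares have unlike denominators. A fold against an array at the floor is given as "at least", because it bounds the difference from below. The lowest 1% of values lay below -77.6 to -133, depending on the array, and the mean size of that limit, 96.6, is called the noise floor here. Fos itself checks no label: the brighter of its probe sets gave 848 for Fos+/+ spleen, 614 for Fos+/+ bone marrow and 426 to 607 for the Fos-/- cultures, whose stromal cells have their own Fos. The 13 osteoclast markers summed to 17909 for Fos+/+ spleen, 13234 for Fos+/+ bone marrow and 2491 to 4779 for the Fos-/- cultures. The leukocyte antigen Ptprc and 6 other pan-haematopoietic genes summed to between 3136 and 3779. Ptprc itself was under the floor in both uninfected spleen arrays. It read 80.5 in Fos+/+ bone marrow, 109 with GFP and 120 with deltaNFAT. The 15 stromal genes summed to between 13916 and 16775, with the stromal and thymocyte antigen Thy1 under the floor in every array.

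The 250 bases before the annotated start of each gene are printed because the cultures differed in an AP-1 subunit and in a virus named after NFAT, while the receptors differed in how they moved. The sequences are RefSeq's for GRCm38.p6, all on the minus strand, given 5′ to 3′: chr3:96293970-96294219 for Fcgr1, chr1:170976072-170976321 for Fcgr2b and chr1:171059404-171059653 for Fcgr3. Capitals mark matches on either strand to the interferon-gamma activated site TTCNNNGAA, the PU box GAGGAA bound by the myeloid factor Spi1, the AP-1 site TGANTCA or the NFAT core GGAAA.
Fcgr1: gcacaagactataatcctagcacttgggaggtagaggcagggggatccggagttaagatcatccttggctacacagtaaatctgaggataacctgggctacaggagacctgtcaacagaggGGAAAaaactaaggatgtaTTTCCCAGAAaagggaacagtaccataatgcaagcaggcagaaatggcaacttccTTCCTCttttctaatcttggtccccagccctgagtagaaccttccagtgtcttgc
Fcgr2b: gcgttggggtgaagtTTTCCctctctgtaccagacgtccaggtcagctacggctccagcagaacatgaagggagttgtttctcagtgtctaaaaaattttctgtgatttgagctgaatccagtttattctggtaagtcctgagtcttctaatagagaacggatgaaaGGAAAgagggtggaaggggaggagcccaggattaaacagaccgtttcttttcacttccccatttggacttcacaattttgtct
Fcgr3: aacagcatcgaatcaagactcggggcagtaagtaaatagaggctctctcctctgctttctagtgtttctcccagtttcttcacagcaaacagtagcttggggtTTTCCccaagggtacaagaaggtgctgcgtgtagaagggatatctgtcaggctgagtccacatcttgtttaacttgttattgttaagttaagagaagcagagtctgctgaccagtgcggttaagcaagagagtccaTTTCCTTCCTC
Fcgr1 held an interferon-gamma activated site, TTCCCAGAA, starting 109 bases before the start, and a PU box 55 bases before it. Fcgr3 held a PU box 6 bases before its start, and 15 before a second start 9 bases downstream. Fcgr2b held neither of these motifs. All 3 windows held 2 matches to the NFAT core, at 129 and 110 bases before the start in Fcgr1, 235 and 83 in Fcgr2b and 147 and 11 in Fcgr3, and the one at 110 in Fcgr1 overlaps the interferon-gamma site. No window held the AP-1 letters. Over 32851 windows of the same length, 7.02% held the interferon-gamma site, 23.3% the PU box, 6.75% the AP-1 site and 55.6% the NFAT core. A match describes letters and is no evidence of binding, and a missing one says nothing about the factor.

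Fcgr2b, the inhibitory receptor, varied most. It read 203 in Fos-/- spleen with deltaNFAT virus, 85.3 with GFP virus, 28.0 in Fos-/- spleen without virus, 18.9 in Fos+/+ spleen and 12.8 in Fos+/+ bone marrow. Only the virus arrays stood well above the floor, and both Fos+/+ arrays were under it. The GFP value also lay under the noise floor of 96.6. From floor to top the gene spanned at least 10.2-fold, and 99.0% of 5567 genes that reached 39.6 in some array spanned less (median 1.93-fold).

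Fcgr1, the high-affinity activating receptor, had the same order of arrays as Fcgr2b among the 3 Fos-/- cultures and a narrower range. Its brighter probe set, 102879_s_at, read 394 with deltaNFAT, 299.9 with GFP, 267 in Fos-/- spleen without virus, 229 in Fos+/+ spleen and 128 in Fos+/+ bone marrow. All 5 values lay above the noise floor, and the whole range was 3.08-fold, wider than in 81.7% of the 5567 genes. Neighbours in this order differed by less than 2-fold, the widest step being the 1.79-fold between the Fos+/+ cultures. The other probe set, 101793_at, read 60.5 with deltaNFAT and -25.4, -86.4, -108 and -142 in GFP, Fos-/- spleen, Fos+/+ spleen and Fos+/+ bone marrow. It was thus above the floor in the deltaNFAT array only, still under the noise floor there, and its negative values have no order.

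Fcgr3, the low-affinity activating receptor, was nearly level. It read 121 in Fos+/+ bone marrow, 107 in uninfected Fos-/- spleen, 89.9 with GFP, 85.4 in Fos+/+ spleen and 80.7 with deltaNFAT. These values spanned 0.59 on the log2 scale, and 23.2% of the 5567 genes spanned less. The deltaNFAT array, highest for Fcgr1 and Fcgr2b, was the lowest for Fcgr3, but no pair of arrays differed 2-fold and 3 of the 5 values were under the noise floor.

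**Figure D1:**
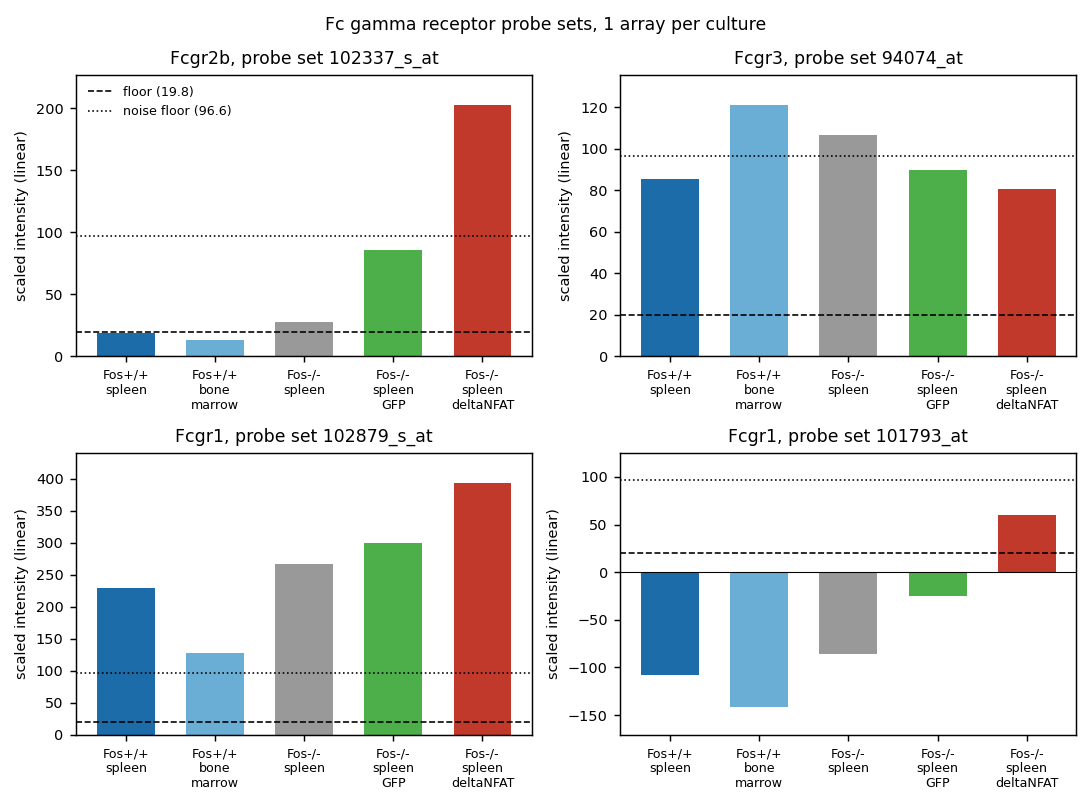
Scaled intensity (linear, vertical axis) of the 4 Fc gamma receptor probe sets in the 5 cultures (horizontal axis), 1 array each, so bars have no error; the dashed line is the floor of 19.8 and the dotted line the noise floor of 96.6. Fcgr2b rises above the noise floor in the deltaNFAT array alone (203), Fcgr3 stays between 80.7 and 121, and the second Fcgr1 probe set is below 0 in 4 arrays.

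Fcgr1 and Fcgr2b shared an order of arrays that the choice of genes did not use. In both, deltaNFAT was above GFP, GFP above Fos-/- spleen without virus, and that array above both Fos+/+ arrays. This order, which was picked after the values were seen, was found in 96 of the 5567 genes (1.72%). It rests on small or dim steps. The Fcgr2b values outside the deltaNFAT array (85.3, 28.0, 18.9 and 12.8) were all under the noise floor of 96.6, where they have no order. Fcgr1 differed 1.12-fold between GFP and no virus and 1.16-fold between the uninfected spleen cultures. The looser pattern of both virus arrays above the 3 arrays without virus was common, with 780 genes (14.0%), and so was that of the 3 Fos-/- arrays above both Fos+/+ arrays, with 559 genes. Fcgr3 had none of these patterns.

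Between the uninfected spleen cultures of the 2 Fos genotypes, no receptor gene was called. Fcgr1 was 1.16-fold lower in Fos+/+ than in Fos-/- spleen (229 against 267), and Fcgr3 was 1.25-fold lower (85.4 against 107). Fcgr2b, with 18.9 against 28.0, was at least 1.41-fold lower but too dim to be called. Thus 0 of 3 genes were called, with 2 bright enough, beside 12.9% of the 4997 genes bright enough (6.48% higher and 6.42% lower). For so few genes this count is near the background. The Fcgr3 value of 85.4 was also under the noise floor. The median log2 ratio was -0.32 over the 3 receptors and 0 over the 6409 genes above the floor in some array. Among 500 probe sets of nearest mean intensity, the middle 95% of log2 ratios ran from -1.23 to 1.17 around Fcgr1 and from -1.27 to 1.29 around Fcgr3, which describes the spread of like-bright genes and is no replicate error. Macrophage markers summed to 7009 in Fos+/+ and 8737 in Fos-/- spleen, and their median log2 ratio was -0.48, 3 of 11 being lower (Aif1, Marco, Mrc1) and 1 higher (Itgam). Neutrophil markers summed to 1440.5 and 3444, with 6 of 11 lower and 0 higher. The part of either cell type in the receptor values was not tested.

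With deltaNFAT virus, the inhibitory receptor was higher than with GFP virus. Fcgr2b read 203 against 85.3, a 2.38-fold difference, and ranked 108th from the top of 5032 genes by ratio. It was the only 1 of 3 receptor genes called higher, beside 3.54% of all genes bright enough that were higher, 2.58% that were lower and 6.12% in either direction. Fcgr1 was 1.31-fold higher (394 against 299.9) and Fcgr3 1.11-fold lower (80.7 against 89.9). The dim Fcgr1 probe set 101793_at was at least 3.06-fold higher, a call that was lost at a floor of 65.1. The log2 ratio of Fcgr2b, 1.25, lay above 99.6% of the 500 probe sets of like brightness, whose middle 95% ran from -0.74 to 0.86. That of Fcgr1, 0.39, lay within their range of -0.60 to 0.53. At the noise floor the GFP value of Fcgr2b was under the floor, and the difference became at least 2.10-fold. With a pseudocount of 32 in place of a floor, the log2 ratio was 1.001, at the edge of the call. Between the same arrays 7 of 13 osteoclast markers were higher with deltaNFAT and 0 lower (median log2 ratio 1.29), as were 1 of 11 macrophage markers (Itgam; median -0.04) and 2 of 7 dendritic cell markers (Cd74 and H2-DMa; median -0.06). The class II genes H2-Aa and H2-Ab1 were under the floor in every array. The part of these cells in the Fcgr2b value was not tested.

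The log2 ratios of the receptors were not alike between these arrays. The log2 ratio of Fcgr2b exceeded that of Fcgr3 by 1.40, a 2.65-fold shift of the inhibitory against the activating low-affinity receptor. It exceeded that of Fcgr1 by 0.86, or 1.81-fold. The GFP value of Fcgr2b (85.3) and both Fcgr3 values (80.7 with deltaNFAT, 89.9 with GFP) lay under the noise floor. At the noise floor the excess over Fcgr3 fell to 1.07, with both Fcgr3 values set to the floor. With the pseudocount it was 1.11. The excess over Fcgr1 was 0.68 at the noise floor and 0.64 with the pseudocount. These differences are between changes of different probe sets, not between their levels, and have no error.

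Fcgr2b was also higher with the GFP virus than without virus. It read 85.3 against 28.0, a 3.05-fold difference, and was again the 1 receptor of 3 called higher, beside 10.3% of 5113 genes called higher, 7.06% lower and 17.4% either way. This call rests on dim values: like-bright probe sets spread from -2.00 to 2.59 in log2 ratio, which holds the 1.61 of Fcgr2b. At a floor of 65.1 the ratio was 0.39, with a pseudocount of 32 it was 0.97, and at the noise floor both arrays were at the floor. Fcgr1 was 1.12-fold higher and Fcgr3 1.19-fold lower. With deltaNFAT over no virus, Fcgr2b was 7.24-fold higher (203 against 28.0), rank 39 of 5180 genes and above 98.6% of its like-bright probe sets, where 11.0% of genes were called higher, 6.66% lower and 17.6% either way. Fcgr1 was 1.47-fold higher and Fcgr3 1.32-fold lower there. At the noise floor the Fcgr2b difference was at least 2.10-fold. The relative shift of Fcgr2b against Fcgr3 was 1.85 in log2 for GFP and 3.26 for deltaNFAT over no virus. At the noise floor these shifts were 0.14 and 1.21. These comparisons and the one of deltaNFAT with GFP share arrays pairwise, so they are no separate evidence. Neutrophil markers summed to 7224 with GFP, 5074 with deltaNFAT and 3444 without virus, and Ptprc was higher with either virus; their part was not tested.

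**Figure D2:**
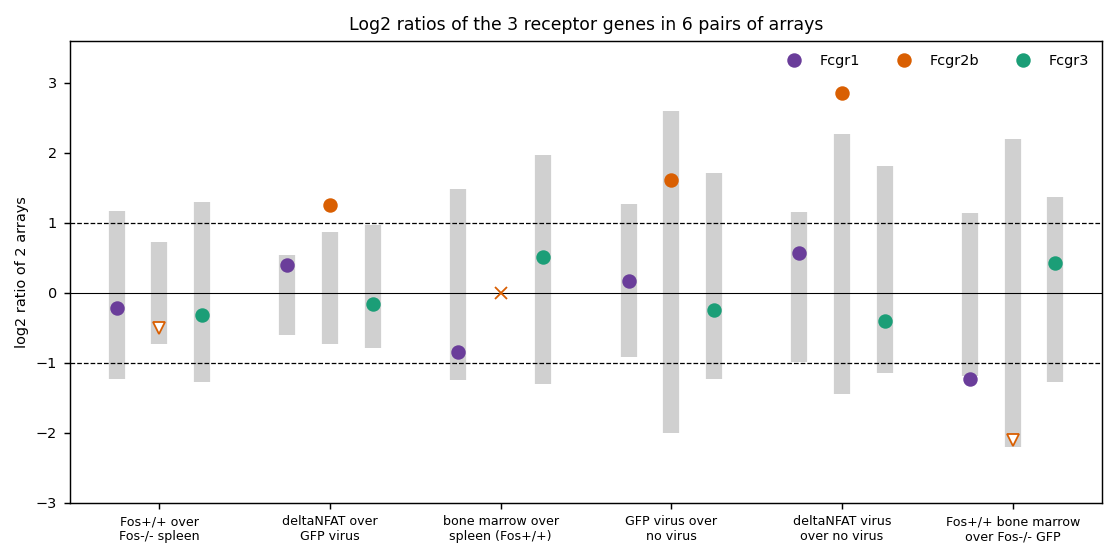
Log2 ratio (vertical axis) of Fcgr1 (102879_s_at), Fcgr2b and Fcgr3 in 6 pairs of arrays (horizontal axis). Filled points are measured in both arrays, open triangles are lower bounds in size, the cross has both arrays at the floor, grey bars hold the middle 95% of 500 probe sets of like brightness and dashed lines mark 2-fold; Fcgr2b stands above its grey bar with deltaNFAT over GFP (1.25) and over no virus (2.86).

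Between tissues, no receptor gene was called. Fcgr1 read 128 in Fos+/+ bone marrow and 229 in Fos+/+ spleen, 1.79-fold lower, and its log2 ratio of -0.84 lay within the -1.25 to 1.49 of like-bright probe sets. Fcgr3 read 121 against 85.4, 1.42-fold higher. Fcgr2b was under the floor in both, so 0 of 3 genes were called, beside 20.3% of 5291 genes, 13.2% higher and 7.18% lower (64.7% of those calls upward, or 51.3% after quantile normalization). The log2 ratio of Fcgr1 was 1.34 below that of Fcgr3. Neutrophil markers summed to 9992 in bone marrow and 1440.5 in spleen, with 11 of 11 called higher in bone marrow, and 3 of 11 macrophage markers were higher (Marco, Mrc1, Msr1). Their part in the receptor values was not tested.

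Fos+/+ bone marrow against Fos-/- spleen with GFP virus is a pair of arrays that shares none with the uninfected spleen pair, but tissue, genotype and virus cannot be told apart in it. Fcgr1 was 2.34-fold lower in bone marrow (128 against 299.9) and Fcgr2b at least 4.31-fold lower (under the floor against 85.3). These were 2 of 3 genes called lower, beside 5.97% of 5257 genes called lower, 9.23% higher and 15.2% either way (60.7% of all calls there were upward, or 47.2% after quantile normalization). Fcgr3 was 1.35-fold higher. The call of Fcgr1 was kept under all 7 alternatives run on its probe set 102879_s_at, at log2 ratios of -1.32 to -1.05. The other floors could not change it, since both values lay above each of them. That of Fcgr2b was lost at the floor of 65.1 and at the noise floor. The Fcgr2b log2 ratio of -2.11 lay within the -2.21 to 2.20 of like-bright probe sets. This pair shares the GFP array with the comparisons of deltaNFAT with GFP and of GFP with no virus.

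Of 11 other Fc receptors listed, 7 were on the array and 6 above the floor somewhere. At most 1 of these 6 was called in any comparison, and the shares over all genes ran from 6.12 to 20.3%. In deltaNFAT over GFP, 0 were higher and 1 lower: Fcer2a, the low-affinity IgE receptor CD23, read 33.8 against 114, 3.38-fold lower, and 41.6 without virus. It was the 1 of 6 called higher in GFP over no virus. Fcgrt, the neonatal receptor that recycles immunoglobulin G, read 303 with deltaNFAT, 532 with GFP, 467 in Fos-/- spleen, 292 in Fos+/+ spleen and 337 in Fos+/+ bone marrow. Its deltaNFAT value was below its GFP value, with a difference under 2-fold. Pigr, which carries IgA and IgM across epithelia, read 64.6 in Fos+/+ spleen against 142 in the Fos-/- culture, and was the 1 of 6 called there, 2.20-fold lower. Fcer1a, the IgE-binding chain of the mast cell receptor, stayed under the floor throughout.

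None of the adaptors Fcer1g and Tyrobp and the kinase Syk was called in any of the 6 comparisons. The gamma chain gene Fcer1g read 98.5 with GFP, 101 with deltaNFAT, 68.2 in Fos-/- spleen, 61.6 in Fos+/+ spleen and 59.6 in Fos+/+ bone marrow on its brighter probe set, a difference under 2-fold between any of the arrays. Its other probe set read 29.3 with GFP, 22.8 with deltaNFAT and under the floor in the rest. Tyrobp, the related adaptor DAP12, was bright and level at 1581 to 1963. Syk, the kinase that binds both adaptors, read 549 for Fos+/+ spleen, 478 for Fos+/+ bone marrow and 289 to 336 in the Fos-/- cultures, a 1.63-fold difference between the uninfected spleen cultures.

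Of 25 listed genes of activating Fc receptor signalling, 21 were on the array and 19 measured. In Fos+/+ over Fos-/- spleen 4 were higher and 1 was lower (median log2 ratio 0.16), beside 6.48% and 6.42% of all genes. The adaptors Blnk (152 against 24.0, 6.33-fold), Lat2 (3.02-fold) and Lcp2 (2.42-fold) and the phospholipase Plcg2 (at least 2.29-fold) were higher, and the kinase Fyn (95.2 against 196) was lower. In deltaNFAT over GFP 0 of 19 were called in either direction, where 6.12% of all genes were, so that the count is near the background, and the median was 0.04. In GFP over no virus 1 of 19 was higher, the kinase subunit Pik3ca (115 against 26.2), and 0 were lower. Of all genes 10.3% were higher and 7.06% lower there. In deltaNFAT over no virus 2 of 19 were higher, Pik3ca and Pik3r1, near the 11.0% of all genes that were higher. The same 2 genes were higher in Fos+/+ bone marrow over Fos+/+ spleen, both without virus, and 2 were lower, Blnk and Lat2. Of all genes 13.2% were higher and 7.18% lower in that pair.

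Genes of the inhibitory side were measured for 11 of 17. Inpp5d, the phosphatase that Fcgr2b recruits, read 373 in Fos+/+ bone marrow, 296 in uninfected Fos-/- spleen, 290.3 for Fos+/+ spleen cells, 252 after deltaNFAT infection and 230.4 with GFP. The phosphatase Ptpn6 read 367 in Fos+/+ spleen and 256 to 305 elsewhere. Neither differed 2-fold between any of the arrays, nor did the inhibitory receptors Pirb (354 to 394) and Sirpa (672 to 796). In deltaNFAT over GFP 0 of 11 were called, near the background of 6.12%, and their median log2 ratio was 0.01. In Fos+/+ over Fos-/- spleen 1 was higher, the B cell and myeloid receptor Cd72 (131 against 29.7, a log2 ratio of 2.14), and 1 lower, the adaptor Pag1 (at the floor against 41.7, at least 2.11-fold). Of all genes 6.48% were higher and 6.42% lower there. In GFP over no virus Pag1 (94.2 against 41.7) was higher and the ubiquitin ligase Cbl, with 5.20 against 44.7, lower. The shares over all genes were 10.3% higher and 7.06% lower. In bone marrow over spleen 2 were higher, Inppl1 and Pag1, and 1 lower, Cd72, beside 13.2% and 7.18% of all genes.

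The genes that carry out phagocytosis and the oxidative burst gave 0 calls among 16 in deltaNFAT over GFP, near the background of 6.12%, with a median log2 ratio of -0.02. In GFP over no virus 2 were higher, the oxidase subunit Cybb and the endosomal GTPase Rab5a, and 0 were lower. Beside them 10.3% of all genes were higher and 7.06% lower. In bone marrow over spleen 3 of 16 were higher, Cybb, Rab5a and Ncf1, and 0 lower, beside 13.2% and 7.18% of all genes. In Fos+/+ over Fos-/- spleen Ncf4 and Rac2 of the oxidase were higher, and its subunit Ncf1 and the cytoskeletal Marcks lower. The shares over all genes were 6.48% higher and 6.42% lower in that pair. Complement genes, which mark targets for the same phagocytes, were measured for 11 of 16. Itgam, a chain of complement receptor 3, was the 1 called higher in deltaNFAT over GFP, beside 3.54% of all genes. It was also higher in Fos+/+ than in Fos-/- spleen, where C1qa was lower.

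**Figure D3:**
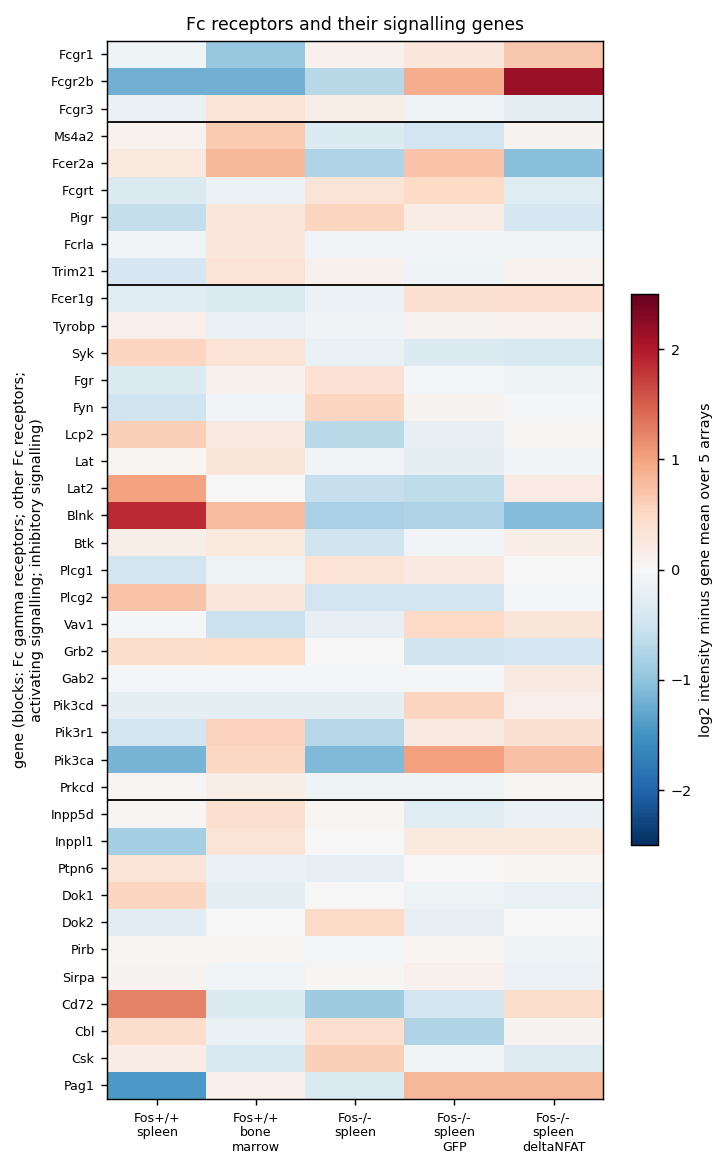
Log2 intensity of each measured gene minus its mean over the 5 arrays (colour) for Fc receptors and their signalling genes (rows, in 4 blocks) in the 5 cultures (columns). Fcgr2b in the deltaNFAT array is the reddest cell of the map, and Blnk is the reddest in the Fos+/+ spleen column.

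The immunoglobulin genes were measured for 5 of 14 listed, and the receptors studied here bind immunoglobulin G. Ighm, the heavy chain of IgM, read 826 with GFP, 603 with deltaNFAT and 278 to 292 without virus. It was 2.97-fold higher in GFP over no virus. Igha of IgA (90.8 against 44.9) and 10.3% of all genes were also called higher there. Neither gene encodes immunoglobulin G. Ighg3, an immunoglobulin G heavy chain, read between 48.5 and 87.1 in the 5 arrays, under the noise floor throughout. The 9 B cell markers summed to 464 with deltaNFAT and 405 with GFP, against 616 without virus. In deltaNFAT over no virus Cd79a, Cd79b and Ms4a1 were lower and Cd72 was higher among 5 measured. Of all genes 6.66% were lower and 11.0% higher there. Cd22, Cr2, Blk and Vpreb3 were under the floor in every array. Among mast cell markers Cpa3, Kit and Fcer1a were under the floor in every array too, and the 11 genes summed to 202 to 451. Of 6 measured, Mcpt1 was higher in Fos+/+ than in Fos-/- spleen (251 against 56.8, 4.42-fold) and 0 were lower. Hdc, Mcpt1 and Ms4a2 were higher in Fos+/+ bone marrow than with GFP virus, and 0 were lower. Of all genes, 6.48% and 9.23% were higher in these pairs.

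Some interferon-gamma response genes, a list chosen because Fcgr1 is a target of that cytokine, were higher in the virus arrays than in uninfected Fos-/- spleen. The summed intensity over 19 genes was 2616 with deltaNFAT, 2412 with GFP and 1543 to 1751 in the 3 arrays without virus. In GFP over no virus 5 of 17 measured were higher and 0 were lower; their median was 0.54 in log2 ratio, against -0.05 over all genes, of which 10.3% were higher. In deltaNFAT over no virus 6 of 17 were higher and none was lower; the median was 0.79 against -0.03, and 11.0% of all genes were higher. The other 12 and 11 were not called. Irgm1 and Iigp1, interferon-inducible GTPases, read 157 and 199 with deltaNFAT, 112 and 109 with GFP, and 46.8 and -12.4 in Fos-/- spleen without virus. In deltaNFAT over GFP 0 of 17 were called, with a median of 0.26. Macrophage markers summed to 9666 with deltaNFAT and 9966 with GFP, against 8737 in Fos-/- spleen. In GFP over no virus 2 of these 11 markers were higher, Mrc1 and Msr1, and 9 were not called, with a median log2 ratio of 0.02. In deltaNFAT over no virus 3 were higher, Itgam, Mrc1 and Msr1, and 8 were not called, with a median of 0.03. Marco read 516 with deltaNFAT and 609 with GFP, against 761 in Fos-/- spleen without virus. In uninfected Fos+/+ bone marrow Mrc1 and Msr1 read 596 and 299, against 1045 and 295 with GFP. Whether the interferon response or the share of macrophages had a part in the receptor values was not tested.

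**Figure D4:**
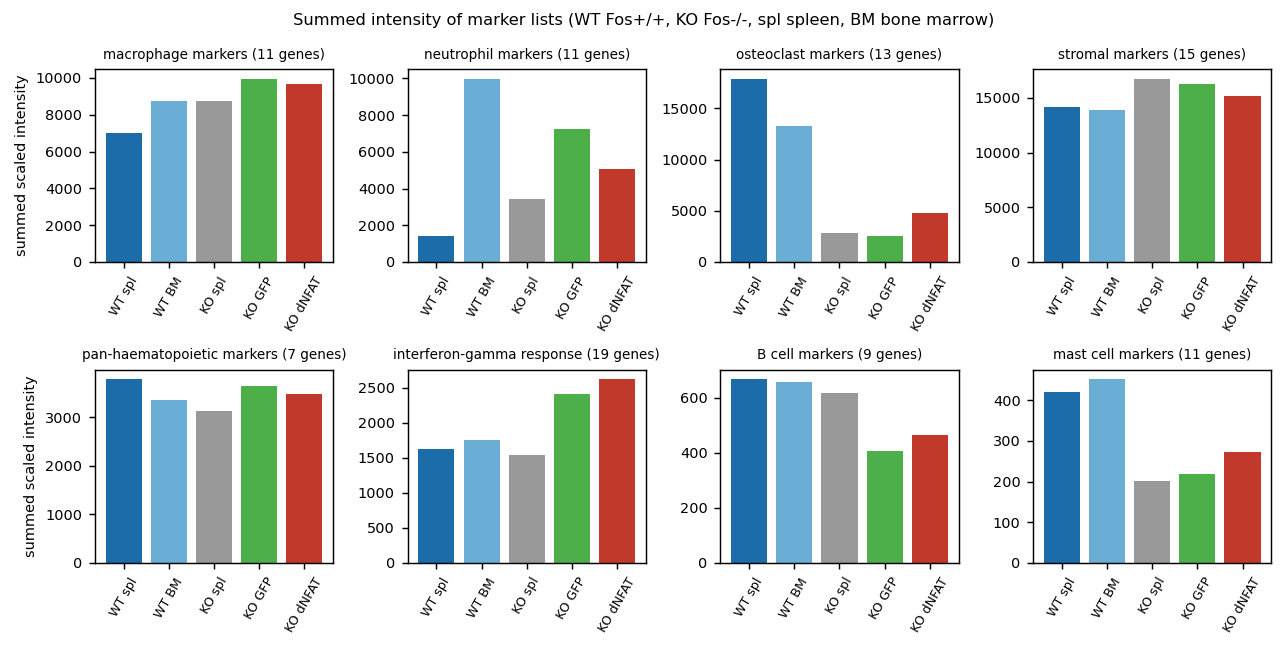
Summed scaled intensity (vertical axes, each from 0, negative values counted as 0) of 8 gene lists in the 5 cultures, 1 array each. The interferon-gamma response list stands at 2412 and 2616 in the virus arrays and at 1543 to 1751 elsewhere, while neutrophil markers peak in bone marrow (9992) and B cell markers are lowest with GFP (405).

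The genes of most similar pattern were taken by the smallest root-mean-square difference of log2 values, each gene centred on its mean over the 5 arrays, among 1525 genes that were above the floor in every array, spanned 2-fold and reached 79.2. For Fcgr1 they were the syntaxin Stx2 (0.04), the interferon-induced Ifi35 (0.08) and the cholesterol synthesis enzyme Sqle (0.13). Ifi35 read 247 with deltaNFAT, 195 with GFP, 178 in Fos-/- spleen, 136 in Fos+/+ spleen and 73.6 in Fos+/+ bone marrow. Each of these genes was thus highest with deltaNFAT and lowest in bone marrow, as Fcgr1 was. For Fcgr2b they were the monocyte attractant Ccl2 (0.27), the stress response gene Nupr1 (0.54) and the GTPase Irgm1 (0.55). Fcgr2b itself was under the floor in both Fos+/+ arrays, and other genes under the floor in some array were not compared. Ccl2 read 693 with deltaNFAT, 193 with GFP, 70.1 in Fos-/- spleen, 51.3 in Fos+/+ spleen and 38.0 in Fos+/+ bone marrow. Its profile was 3.59-fold higher with deltaNFAT than with GFP, against 2.38-fold for Fcgr2b. With 5 arrays many genes can share a pattern, and likeness here says nothing of shared control. Fcgr3 was left out, since it spanned less than 2-fold.

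**Figure D5:**
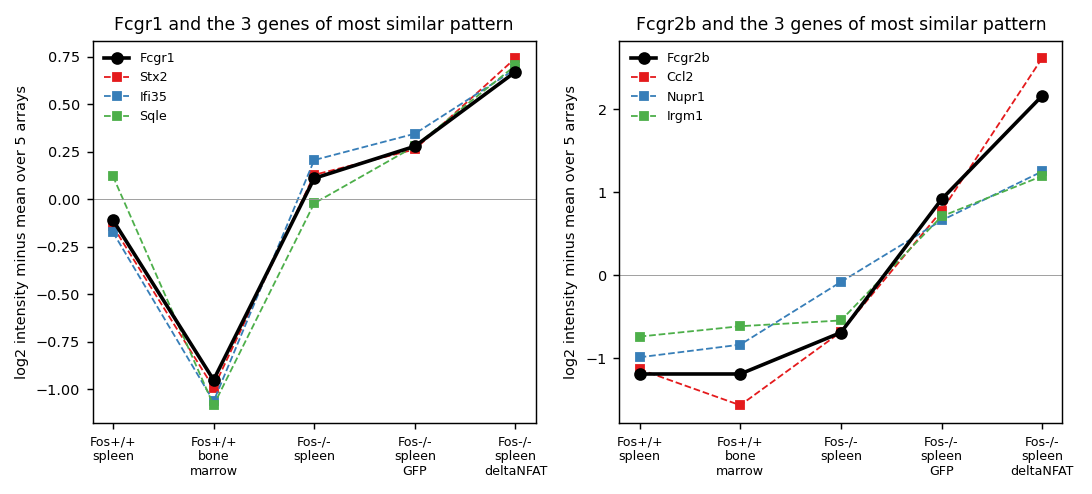
Log2 intensity minus the gene's mean over 5 arrays (vertical axis) across the cultures (horizontal axis) for Fcgr1 (left) and Fcgr2b (right), in black, with the 3 genes of most similar pattern in colour. Lines join values of 1 array each. All 3 genes beside Fcgr1 are lowest in bone marrow, and of the 3 drawn beside Fcgr2b, Ccl2 lies closest to it.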

How the data were processed

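RNA of 5 mouse co-cultures was measured on 1 one-colour oligonucleotide array each, with 12488 probe sets, 66 of them controls. The authors deposited 1 linear intensity per probe set and array; what was done before that is not stated in them or the labels. The deposited intensity values had the same mean without the lowest and highest 2% in every array (100.1) and 20.3 to 22.4% of them were at or below 0. Arrays were scaled to that trimmed mean with Python 3.11.15, numpy 2.4.6 and pandas 2.3.3, floored at the 40th percentile and put on the log2 scale. Gene symbols came from the platform annotation: 396 probe sets with several symbols and 1237 with none were not named. A match of gene identifiers to RefSeq (GRCm38.p6) succeeded for 10817 of 10833 probe sets and changed 0 symbols. The brightest probe set stood for a gene. With 1 array a group there was no test; the number of arrays limits the precision. Members, lists, comparisons and call rule were chosen with earlier results of these data known. The rule for named genes took every member probe set, up to 4 called genes of each list with the largest absolute log2 ratios in the first 2 comparisons (Fos+/+ over Fos-/- spleen, deltaNFAT over GFP), Fcer1g, Syk, Inpp5d, Ptpn6, Lyn and Tyrobp where measured, and the 3 genes most like a member. Lyn was not analysed here, 1 further gene of the rule is not reported here, cell type lists are given mainly as sums and counts, and other genes were named after their values were seen. Alternatives were other floors, quantile normalization, unscaled deposited values, a pseudocount of 32, other rules for probe sets and no brightness requirement. The procedure was tested on simulated data.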

Additional observations from a re-analysis of the deposited data

How the results depend on the processing

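Each of the 4 probe sets was recomputed in 6 comparisons under 7 alternatives: values as deposited, quantile normalization, floors at the 30th (7.40) and 60th (65.1) percentile, a pseudocount of 32, no brightness requirement, and the noise floor of 96.6, which was added after seeing the data. Fcgr2b kept its call in deltaNFAT over GFP and over no virus in 7 of 7, and Fcgr1 (102879_s_at) in Fos+/+ bone marrow over GFP in 7 of 7. Fcgr3 was called in none. Several alternatives could not undo these calls. Dropping the brightness requirement can only add calls, and the deposited values were already almost equally scaled. Floors under both values leave a ratio as it was. This held for Fcgr2b in deltaNFAT over GFP at 7.40 and 65.1, and for that Fcgr1 call at every floor. Genes called numbered 0 in GFP over no virus at the 60th percentile, with the pseudocount, at the noise floor and with unsuffixed probe sets alone, which hold no Fcgr2b set. In bone marrow over GFP they numbered 1 at the 60th percentile and at the noise floor and 0 with unsuffixed sets. With the mean of all probe sets they numbered 1 in bone marrow over spleen and 2 in deltaNFAT over no virus, Fcgr1 being added in both; this mean takes in the negative values of its second probe set, and the bone marrow mean falls under the floor. For differences in log2 ratio, Fcgr2b minus Fcgr3 in the Fos comparison was 0.32 at the 60th percentile, 0.0033 with the pseudocount and 0.14 at the noise floor, and in GFP over no virus 0.64 at the 60th percentile and 0.14 at the noise floor. It was -1.07 in bone marrow over spleen at the 30th percentile, and in bone marrow over GFP -0.82 at the 60th and -0.33 at the noise floor. Fcgr1 minus Fcgr3 was -0.25 in the Fos comparison with the mean of probe sets and -0.077 at the noise floor. With unsuffixed sets it was 1.77 in deltaNFAT over GFP, -0.50 in bone marrow over spleen, 2.01 in deltaNFAT over no virus and -0.43 in bone marrow over GFP. In deltaNFAT over no virus it was 1.06 after quantile normalization and 1.73 with the mean of sets. Fcgr2b minus Fcgr1 in the Fos comparison was 0.22 at the 60th percentile, 0.076 with the mean of sets and 0.22 at the noise floor. In bone marrow over spleen it was 1.61 with the mean of sets. In GFP over no virus it was 0.22 at the 60th percentile and 0.82 with the pseudocount, and it reversed to -0.17 at the noise floor, where both Fcgr2b values were at the floor. It was 0.51 in deltaNFAT over no virus at the noise floor. In bone marrow over GFP it was -1.51 at the 30th and 0.84 at the 60th percentile, 0.69 with the mean of sets and 1.23 at the noise floor. Over all genes, 308 calls in deltaNFAT over GFP became 633 at the 30th and 58 at the 60th percentile, 122 with the pseudocount and 30 at the noise floor, and 645 calls in the Fos comparison became 1019, 264, 324 and 169. The corresponding calls were 1076, then 1577, 410, 586 and 249 in bone marrow over spleen, 889, then 1340, 341, 463 and 214 in GFP over no virus, 914, then 1363, 372, 514 and 242 in deltaNFAT over no virus, and 799, then 1305, 257, 376 and 151 in bone marrow over GFP. Signal over background limits Fcgr2b outside the deltaNFAT array, Fcgr3 in 3 arrays and the second Fcgr1 probe set throughout. With 1 array a group nothing here measures the spread between cultures.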
